A study of Mus musculus with 12 samples.

Results

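The 31 interferon response genes described here are genes that type I or type II interferon induces, together with the transcription factors that drive that induction. They were taken by symbol, not by a cut on their values, from a table of 31332 mouse genes. Earlier results of these data were known when they were chosen. All 31 were in the table, and all 31 passed the filter on low counts, as did 17268 genes in all. RNA came from thymic epithelial cells of C57BL6/J mice 2 months old, sorted into cortical (cTEC) and medullary (mTEC) cells. Every mouse carried floxed alleles of LXRalpha (gene Nr1h3) and LXRbeta (gene Nr1h2), the liver X receptors, which are nuclear receptors that respond to oxysterols. Control libraries came from mice with the floxed alleles alone, and Cre libraries from mice that also carried FoxN1-Cre, a recombinase driven by a gene active in thymic epithelium. There were 3 libraries in each of the 4 groups: control cTEC (libraries 7 to 9), Cre cTEC (10 to 12), control mTEC (1 to 3) and Cre mTEC (4 to 6). The controls carried no Cre, so loss of the receptors and presence of the recombinase cannot be told apart.

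Total counts ran from 4804697 in library 11 to 11159013 in library 1. The 31 genes took between 0.624% and 0.847% of the counts of a library. Levels are given in CPM, the count of a gene relative to the counts of all tested genes in its library, scaled by TMM factors. Nr1h2 was lower in Cre cTEC (log2 fold change -0.58) and Cre mTEC (-0.63), and Nr1h3, at group means of 6.30 to 8.38 CPM, was not called in either. Foxn1, whose regulatory sequence drives the recombinase, was also lower in Cre libraries (-1.53 in cTEC and -1.63 in mTEC). The 7 cTEC markers summed to 7270 to 17815 CPM in cTEC and to 1703 to 2412 CPM in mTEC, and the 8 mTEC markers to 850 to 1581 CPM in cTEC and to 4578 to 5635 CPM in mTEC. Of the mTEC markers, Ccl21a had 0 counts in every cTEC library and at most 2 in an mTEC library. Krt5 made up most of the mTEC marker sum in each group, at group means of 835 to 3518 CPM. Fold changes, standard errors (SE) and p-values are from edgeR's quasi-likelihood test over the 17268 genes, with Benjamini-Hochberg adjustment, and a gene is called when its adjusted p is under 0.05. The labels do not state that the 3 libraries of a group came from separate animals, or whether a cTEC and an mTEC library share one. All libraries were treated as independent, so p-values measure the spread between these libraries, which may be technical. In such bulk samples, fewer cells of a type and less RNA per cell cannot be told apart.

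Interferons bind receptors on the cell surface, and the attached kinases phosphorylate STAT proteins. After type I interferon a complex that holds STAT2 and IRF9 binds the interferon-stimulated response element in target promoters, while type II interferon acts through the gamma-activated site. In the thymus, medullary epithelium is known to express interferons without infection, and interferon-induced genes are active in both epithelial and antigen-presenting cells there.

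Promoter windows are shown for 8 members because those that stood higher in mTEC, those that stood lower and one that was not called carried the same letters. They were chosen after their values were seen. RefSeq promoters (build GRCm38.p6, 250 bases before to 50 after the start, on the strand of the gene) were found for 26 of the 31 members. Entries for Mx1, Mx2, Oas2, Usp18 and Cxcl11 were not matched. The letters GAAA, any 2 bases, then GAAA again, the core of an interferon-stimulated response element, were searched on both strands. On the other strand they read as TTTC, any 2 bases, TTTC. Capitals mark each match, and matches that overlap run together.
Cxcl10, chr5:92349043-92349139, minus strand: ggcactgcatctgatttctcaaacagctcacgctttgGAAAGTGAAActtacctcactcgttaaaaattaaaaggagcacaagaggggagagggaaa
Oas3, chr5:120777675-120777784, minus strand: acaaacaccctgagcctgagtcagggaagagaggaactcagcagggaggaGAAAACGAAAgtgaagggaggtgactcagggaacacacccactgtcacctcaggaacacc
Socs1, chr16:10785554-10785669, minus strand: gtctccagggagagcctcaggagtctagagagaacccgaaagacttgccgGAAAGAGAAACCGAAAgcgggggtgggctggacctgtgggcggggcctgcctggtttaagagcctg
Ifit1, chr19:34640735-34640863, plus strand: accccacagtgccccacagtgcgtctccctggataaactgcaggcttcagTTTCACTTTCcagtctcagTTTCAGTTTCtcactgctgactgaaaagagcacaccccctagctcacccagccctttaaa
Ifit3, chr19:34583323-34583466, plus strand: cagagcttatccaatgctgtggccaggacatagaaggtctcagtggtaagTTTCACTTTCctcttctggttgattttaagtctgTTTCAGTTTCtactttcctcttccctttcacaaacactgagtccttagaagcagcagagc
Isg15, chr4:156200825-156200946, minus strand: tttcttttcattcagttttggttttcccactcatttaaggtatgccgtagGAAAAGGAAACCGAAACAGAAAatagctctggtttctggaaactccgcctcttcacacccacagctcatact
Gbp2, chr3:142620554-142620662, plus strand: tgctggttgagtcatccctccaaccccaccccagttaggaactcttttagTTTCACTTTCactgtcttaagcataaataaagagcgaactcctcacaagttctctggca
Rsad2, chr12:26456513-26456622, minus strand: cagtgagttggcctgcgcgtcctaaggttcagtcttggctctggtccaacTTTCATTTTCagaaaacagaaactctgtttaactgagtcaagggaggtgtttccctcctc

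The paired GAAA letters were found in the promoter entries of 17 of the 26 members, or 65.4%, against 3.99% of the 27025 genes with an entry. The letters TTCNNNGAA of a gamma-activated site, searched on both strands too, were in 6 of 26, or 23.1%, against 9.55%. In Igtp, Bst2, Ifitm3 and Oas1a both sets of letters were present. By direction in control mTEC against cTEC, described next, the paired GAAA letters were present in 3 of 6 members that were higher, 8 of 12 that were lower and 6 of 8 that were not called. The letters were therefore found on both sides of that comparison. Among the members not called, Ddx58, Ifih1 and Ifitm3 held their matches only after the start. The promoter entry of Stat2, also not called, was not matched to the start of a GENCODE transcript. Ifit1 and Ifit3, both lower in mTEC, held 2 separate matches each, and Isg15, also lower, held 3 that overlap. Among the members that were higher, Cxcl10 held its 1 match at the far end of the window, 213 bases before the start, Oas3 held 1 and Socs1 held 2 that overlap. Cxcl9, Oasl1 and Ifit2 held none in their windows, which says only that these letters are not there.

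**Figure D1:**
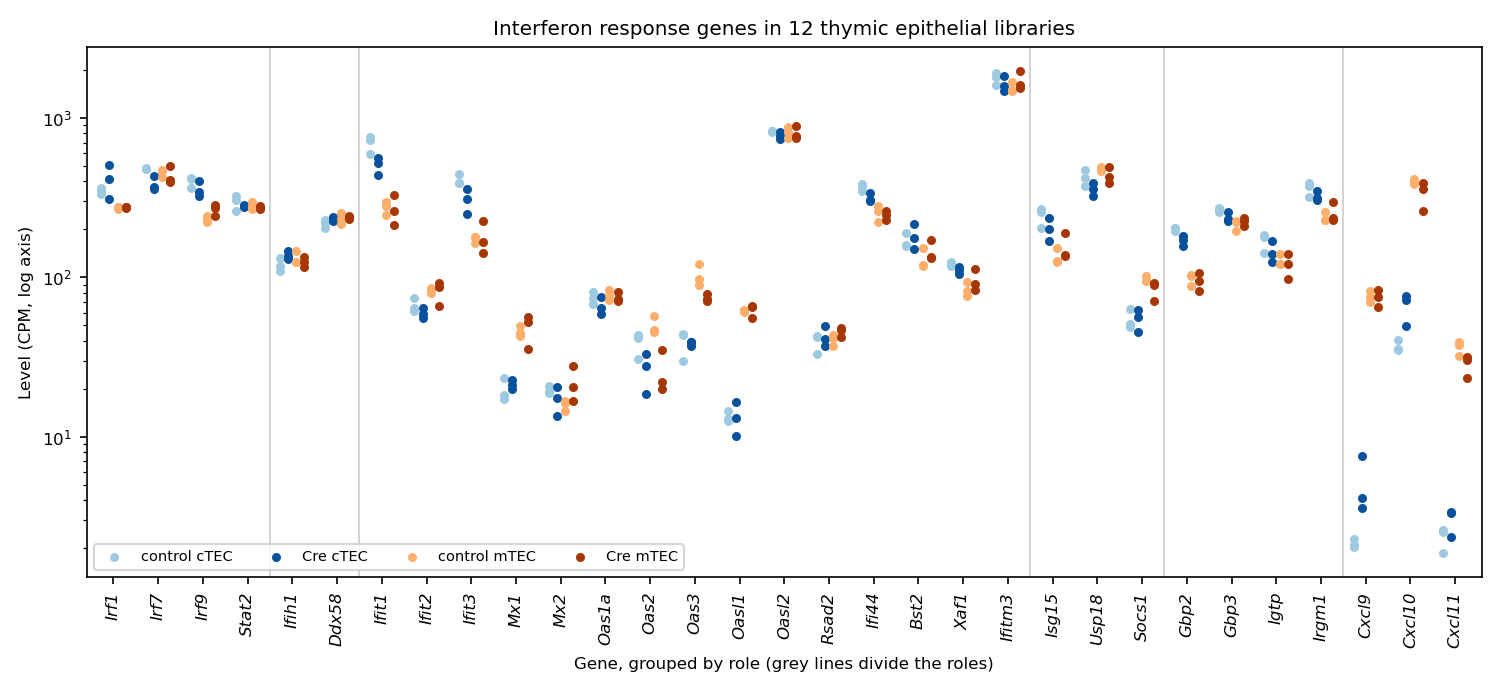
Level of each of the 31 genes in the 12 libraries, in CPM on a log axis, with 1 point per library, colours for the 4 groups and grey lines between the roles. The 3 chemokines at the right show the widest gap between cTEC and mTEC, and Cxcl9 in cTEC lies between 2.02 and 7.58 CPM.

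Per kilobase of the longest GENCODE transcript, mean levels in control cTEC ran from 0.613 CPM for Cxcl11 to 2619 CPM for Ifitm3, an antiviral protein of cell membranes. The next in that group were Isg15 at 320 CPM per kilobase, Oasl2 at 264 and Ifit1 at 262. In control mTEC Ifitm3 again led, at 2287 CPM per kilobase, followed by Usp18 at 269 and Oasl2 at 261. Ifit1 stood there at 103 CPM per kilobase and Isg15 at 178. Cxcl10 went from 16.5 CPM per kilobase in control cTEC to 180 in control mTEC. All 31 genes were thus read in both cell types, with Cxcl9 and Cxcl11 at the lower end in cTEC.

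In control libraries, mTEC and cTEC differed at 20 of the 31 genes, in both directions. The 3 chemokines were 10.9 to 35.4 times higher in mTEC, and the GTPases Gbp2, Gbp3, Igtp and Irgm1 were all lower. Mx1, also a GTPase but counted with the antiviral effectors, was higher. Other roles were split, with 4 antiviral effectors higher and 5 lower, and 1 modifier or feedback gene each way. Outside the set, interferon-induced GTPases also went both ways by group means. Gbp5 went from 15.9 CPM in control cTEC to 106 CPM in control mTEC, and Irgm2 from 190 to 118 CPM. Of all genes tested, 29.3% were higher in mTEC and 30.0% lower. Among the 31, 8 were higher, 12 were lower and 11 were not called, shares that lie close to that background, so the number called is no result about these genes. Their median log2 fold change was -0.08, against -0.05 over all genes. Without a filter on low counts, which shifted the median of all genes by 0.17 on the log2 scale, the split was 9 higher and 8 lower.

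Cxcl9, Cxcl10 and Cxcl11 are chemokines that attract T cells through the receptor CXCR3. Cxcl9 stood at 2.07, 2.02 and 2.28 CPM in control cTEC libraries and at 82.6, 75.3 and 70.2 CPM in control mTEC. Those cTEC levels rest on 12, 12 and 16 counts. No cTEC library came near any mTEC library, and the log2 fold change was 5.15 (SE 0.22, adjusted p = 3.44e-13). Cxcl10 stood at 35.3, 40.2 and 35.1 CPM in control cTEC libraries and at 399, 386 and 417 CPM in control mTEC (log2 fold change 3.44, SE 0.17, adjusted p = 2.97e-12). Cxcl11 stood at 2.59, 2.52 and 1.86 CPM and at 31.9, 39.4 and 37.5 CPM (3.97, SE 0.21, adjusted p = 5.74e-12). All 3 chemokines showed the same order of groups, with mTEC above cTEC in every library. The summed level of markers of macrophages and dendritic cells, which also make these chemokines, moved with them. The 10 markers summed to 257 to 338 CPM in control mTEC and to 40.4 to 58.0 CPM in control cTEC, and 6 of the 9 tested were higher in mTEC. Itgax, Clec9a and Siglech went the other way by group means. From control cTEC to control mTEC these were 1.30 and 0.793 CPM, 1.37 and 0.284 CPM, and 1.61 and 1.30 CPM. Lyz2 made up most of that sum, at 207 to 281 CPM in control mTEC, and no marker of the list was at 0 in all libraries of a group. B cell markers were also higher (3 of 4 tested, 17.5 to 22.7 against 7.09 to 8.85 CPM). Thymocyte markers were lower in control mTEC, 7 of 9 tested, at 81.2 to 103 CPM against 125 to 200.3 CPM, as were 12 of the 31 members. The part of these cells in the members' levels was not tested.

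**Figure D2:**
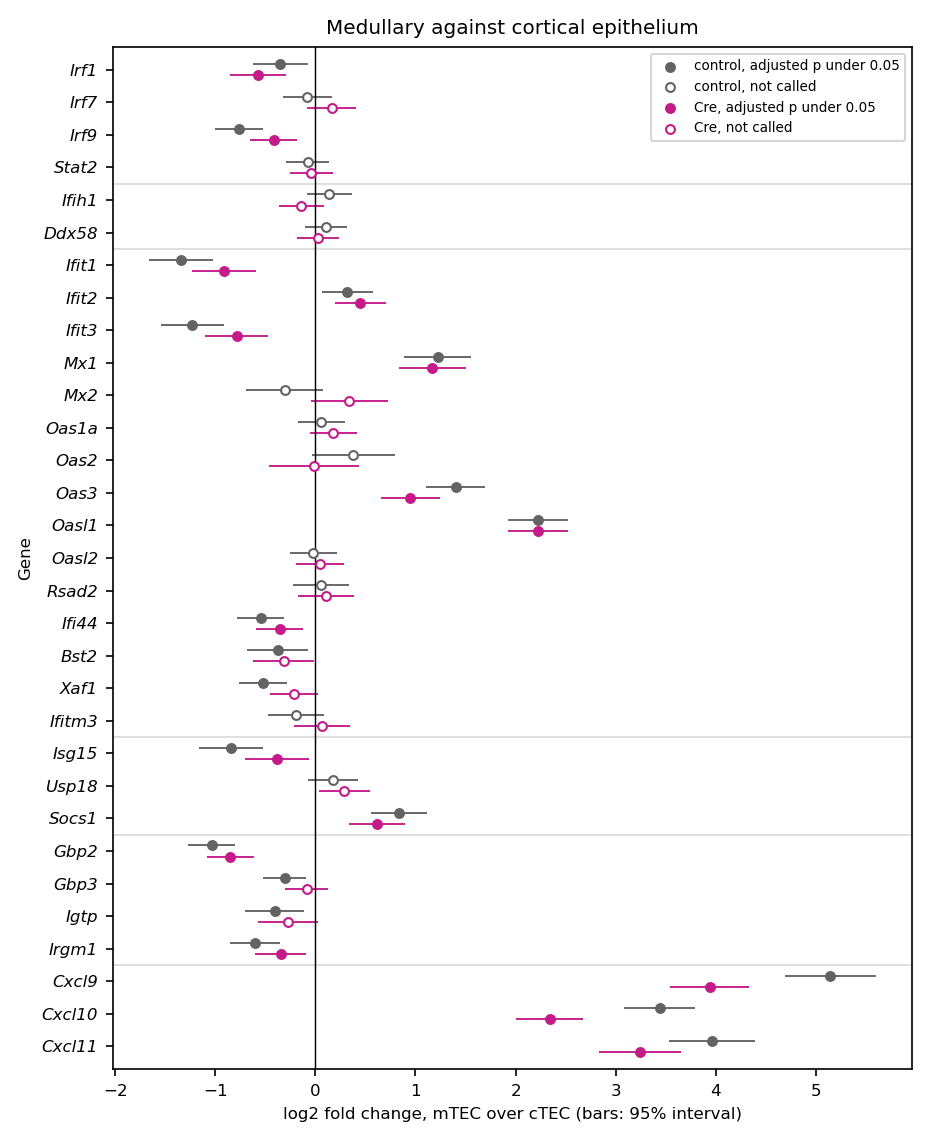
Log2 fold change of mTEC over cTEC for each gene with its 95% interval, in control (grey) and Cre (pink) libraries, with filled points for an adjusted p under 0.05 and lines between the roles. Chemokines, Oasl1, Oas3, Mx1, Socs1 and Ifit2 lie to the right in both genotypes, and Ifit1, Ifit3, Gbp2 and Irf9 to the left in both.

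Of 4 transcription factors in the set, 2 were lower in mTEC and 2 were not called. Irf9, the DNA-binding partner of STAT2, stood at 412, 361 and 421 CPM in control cTEC libraries and at 244, 237 and 224 CPM in control mTEC. The groups did not overlap, and Irf9 was lower in mTEC, by -0.76 on the log2 scale (SE 0.11, adjusted p = 1.26e-05). Irf1, an activator induced above all by type II interferon, stood at 335, 366 and 350 CPM in cTEC and at 278, 277 and 270 CPM in mTEC (-0.35, adjusted p = 0.0302). This smaller difference was not called without library 1, 2, 3, 4, 7, 8 or 9 (adjusted p up to 0.125), with DESeq2's size factors (0.0509) or without a filter (0.368). Irf7, which amplifies type I interferon production, stood at 476, 481 and 483 CPM in cTEC and at 465, 472 and 426 CPM in mTEC, without overlap, and was not called (-0.08, 95% interval -0.32 to 0.17). Stat2 was at 304, 263 and 323 CPM and at 296, 269 and 281 CPM, so that its groups overlapped, with an interval of -0.29 to 0.14. The cytosolic RNA sensors Ifih1 (MDA5) and Ddx58 (RIG-I) were not called either. Ifih1 stood at 118, 132 and 109 CPM in control cTEC libraries and at 146, 126 and 124 CPM in control mTEC, and Ddx58 at 219, 204 and 228 CPM and at 252, 231 and 216 CPM. Both pairs of groups overlapped.

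Of 15 antiviral effectors, 4 were higher in control mTEC, 5 were lower and 6 were not called. Oasl1, a relative of the 2′-5′ oligoadenylate synthetases that restrains Irf7 translation, stood at 12.4, 14.5 and 12.8 CPM in cTEC and at 61.0, 61.9 and 62.7 CPM in mTEC (2.22, SE 0.14, adjusted p = 1.33e-10). Oas3, a synthetase that activates RNase L, stood at 43.7, 43.9 and 29.8 CPM and at 122, 98.1 and 89.0 CPM (1.40, SE 0.14, adjusted p = 7.33e-08). For both genes every mTEC library lay above every cTEC library. Mx1, a dynamin-like GTPase, was higher by 1.22 (adjusted p = 2.36e-06). Ifit2 was higher by 0.32 (adjusted p = 0.0304) and was not called when library 1, 2, 8 or 9 was left out (adjusted p up to 0.0913). Ifit proteins bind viral RNA that lacks a host cap. Ifit1, the first of them, moved the other way, from 730, 591 and 766 CPM in cTEC to 280, 245 and 298 CPM in mTEC (-1.34, SE 0.15, adjusted p = 3.97e-07). Ifit3 followed it, at 391, 393 and 443 CPM against 165, 180 and 179 CPM (-1.23, SE 0.15, adjusted p = 9.86e-07), though a near-identical copy in the mouse genome leaves its counts uncertain. Ifi44 (-0.55) and Xaf1 (-0.52), which favours cell death, were lower too, as was Bst2, which tethers virus particles (-0.38, adjusted p = 0.0328). Bst2 was not called without library 1, 3, 4, 7, 8 or 11 (adjusted p up to 0.223), nor with DESeq2, its size factors, no filter or the stricter filter (up to 0.275).

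Isg15, a small protein attached to other proteins like ubiquitin, stood at 203, 267 and 256 CPM in control cTEC libraries and at 125, 153 and 126 CPM in control mTEC (-0.84, SE 0.15, adjusted p = 9.84e-05). Socs1, which blocks the receptor kinases, stood at 48.6, 63.4 and 50.8 CPM and at 94.8, 94.3 and 101 CPM (0.83, SE 0.13, adjusted p = 2.46e-05). Usp18, which removes Isg15 and damps the type I receptor, was at 419, 374 and 471 CPM and at 468, 472 and 490 CPM, with overlap, and was not called. The feedback gene Socs1 was thus higher in mTEC, while the modifier Isg15 was lower. The GTPases Gbp2, Gbp3, Igtp and Irgm1 act on vacuoles that hold pathogens and are classical targets of type II interferon. Gbp2 stood at 205, 204 and 195 CPM in control cTEC libraries and at 102, 103 and 88.9 CPM in control mTEC (-1.04, SE 0.11, adjusted p = 1.53e-07). Irgm1 stood at 376, 320 and 392 CPM and at 256, 230 and 229 CPM (-0.60, adjusted p = 0.000294). Both groups stood apart for these 2 genes. Gbp3 was at 269, 256 and 271 CPM and at 222, 225 and 196 CPM (-0.31, adjusted p = 0.0153), and Igtp at 179, 142 and 186 CPM and at 140, 121 and 121 CPM (-0.41, adjusted p = 0.0192). Both smaller differences were lost without a filter (adjusted p = 0.494 and 0.201), the first also without library 3, 7 or 9 (up to 0.105) and the second without library 2, 3, 7 or 9 (up to 0.108).

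In Cre libraries the same 8 genes were higher in mTEC, against 25.1% of all genes, and 8 were lower, against 24.5%. Usp18 was not called (0.29, adjusted p = 0.0517), though every Cre mTEC library lay above every Cre cTEC library. It was called as higher with DESeq2, its size factors, the robust fit, no filter and the stricter filter (adjusted p 0.00904 to 0.0487). Without library 5, 7 or 8 it was called too (0.0219 to 0.0394). The median over the 31 was 0.03, against -0.02 over all genes. All 8 lower genes were also lower in control libraries. Bst2, Gbp3, Igtp and Xaf1 were called in control libraries alone, but the difference between the genotypes was not called for any of the 4. In Cre libraries Bst2, Igtp and Xaf1 were called as lower with voom (adjusted p = 0.00203, 0.0028 and 0.0262). They were also called without library 4 (0.0298, 0.0439 and 0.0206), and Bst2 and Igtp without library 10 (0.0178 and 0.0454). Cxcl9 (3.94), Cxcl11 (3.24), Cxcl10 (2.34) and Oasl1 (2.22) again led, followed by Mx1 (1.17), Oas3 (0.95), Socs1 (0.62) and Ifit2 (0.45). Of the lower genes, Ifit1 (-0.91), Gbp2 (-0.85), Ifit3 (-0.78) and Irf1 (-0.57) kept their call in each of 19 alternative settings. Irf9 (-0.42) lost its call without a filter (adjusted p = 0.0875), where the split of the 31 was 9 higher and 4 lower. Ifi44, Irgm1 and Isg15 lost theirs there too. Ifi44 (-0.36) was also lost when library 6 or 12 was left out, Irgm1 (-0.35) when 5, 6, 7 or 12 was, and Isg15 (-0.38) when 1, 3, 5, 6, 7, 8, 9, 11 or 12 was. Irgm1 and Isg15 were lost with the Cre libraries alone as well, and Isg15 with the stricter filter. Over these settings the adjusted p reached 0.201 for Ifi44, 0.22 for Irgm1 and 0.234 for Isg15.

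Some related genes moved apart between the cell types. Others moved together in controls, as the chemokines did, and as Gbp2, Gbp3, Igtp and Irgm1 did. The Ifit, Oas and Oasl genes stand in clusters, and by RefSeq gene order Ifit2 and Ifit3, Oas2 and Oas3, and Oasl1 and Oasl2 are direct neighbours. Ifit2 was higher in mTEC and Ifit3 lower. Oas3 was higher, and Oas2 was not called in control libraries (0.38, adjusted p = 0.109). Oas2 lay in the same direction, however, with every control mTEC library above every control cTEC library. It was called as higher there with voom (adjusted p = 0.036), no filter (0.00133) and the control libraries alone (0.0129). In Cre libraries its value was -0.01. Oasl1 was higher while Oasl2, at 812 to 833 CPM in control cTEC and 753 to 873 CPM in control mTEC, was not called (95% interval -0.26 to 0.22). The pairs below were picked after their values were seen, so no test is given. The count ratio of Ifit1 to Ifit2 was 7.40 to 11.9 in the 6 cTEC libraries and 2.88 to 3.74 in the 6 mTEC libraries. Oasl1 to Oasl2 was 0.0137 to 0.0201 in cTEC and 0.0699 to 0.0885 in mTEC, and Mx1 to Mx2 was 0.876 to 1.58 and 1.74 to 3.13. These 3 ratios separated the cell types without overlap over both genotypes together. The ratio of Oas3 to Oas2 was 0.977 to 1.06 in control cTEC and 1.96 to 2.12 in control mTEC. In Cre libraries it was 1.20 to 2.11 in cTEC and 2.25 to 3.66 in mTEC. It thus separated the cell types within each genotype, and in each cell type every Cre library lay above every control library, while Cre cTEC and control mTEC overlapped.

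**Figure D3:**
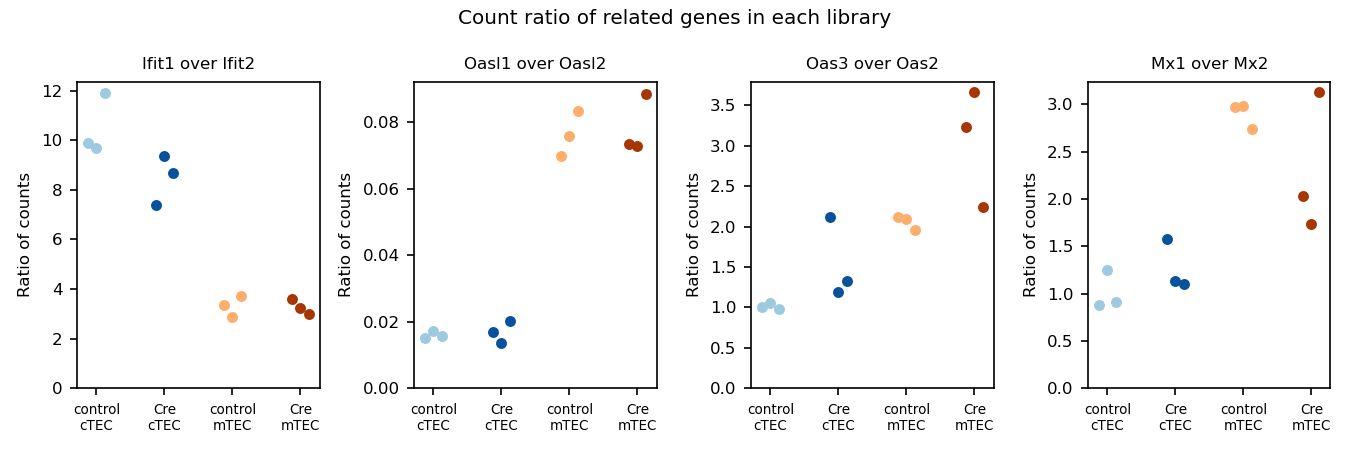
Ratio of the counts of 2 related genes in each library, on linear axes that start at 0, with 1 point per library for the 4 groups. Ifit1 over Ifit2 is higher in cTEC, Oasl1 over Oasl2 and Mx1 over Mx2 are higher in mTEC, and Oas3 over Oas2 is higher in mTEC within each genotype, with overlap between Cre cTEC and control mTEC.

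Between the genotypes few of the 31 genes were called. The counts lay near the shares over all genes given below, so they are no result about these genes. In cTEC, Cxcl10 and Cxcl9 rose in Cre libraries and the other 29 were not called. That is 2 higher genes against 5.62% of all genes, and 0 lower against 3.38%. An unadjusted p under 0.05 was found for 8 of the 31, and for 3434 of all 17268 genes. The control cTEC libraries are the same ones as in the comparison with control mTEC. Cxcl10, at 35.3, 40.2 and 35.1 CPM in control cTEC, stood at 72.2, 49.2 and 76.6 CPM in Cre cTEC. Each Cre library lay above each control library, with library 11 lowest of the Cre libraries (log2 fold change 0.85, SE 0.17, adjusted p = 0.00218). The call held in each of the 19 alternative settings, with an adjusted p of at most 0.0172. Cxcl9, at 2.07, 2.02 and 2.28 CPM, stood at 3.58, 7.58 and 4.09 CPM in Cre cTEC, on 32, 39 and 28 counts. Here library 11 was the highest (1.17, SE 0.29, adjusted p = 0.0152). Without library 11 the Cxcl9 value was 0.82 (adjusted p = 0.0505). The call was also lost without library 7 or 8 (0.0626 and 0.062), with voom (0.0822) and with the cTEC libraries alone (0.106). Cxcl11 was at 3.35, 3.30 and 2.34 CPM in Cre cTEC, overlapped with the controls and was not called (95% interval -0.20 to 0.97).

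Marker lists differed between the same cTEC groups. Of 7 cTEC markers 5 were higher in Cre cTEC, where the list summed to 8277 to 17815 CPM against 7270 to 8895 CPM, with library 11 lowest. The macrophage and dendritic cell list summed to 34.2 to 47.2 CPM in Cre cTEC and 40.4 to 58.0 CPM in control cTEC, and none of its 9 tested markers was called. The mTEC list summed to 850 to 1045 CPM against 1456 to 1581 CPM, with 2 markers higher and 1 lower. Krt5, the lower one, made up most of that sum, at a mean of 835 CPM against 1443 CPM. By group means Fezf2 rose from 23.9 CPM in control cTEC to 40.1 CPM in Cre cTEC, and Tnfrsf11a from 20.2 to 35.9 CPM. Aire fell from 10.3 to 5.75 CPM, Cldn3 from 8.12 to 4.67, Cldn4 from 11.8 to 5.24 and Cd80 from 2.38 to 1.70, without a call. Averaged over both cell types, 4 of the 7 mTEC markers tested were called as lower and 1 as higher. Erythroid markers summed to 7.75 to 64.4 CPM in Cre cTEC and 3.63 to 8.85 CPM in control cTEC. None of the 4 tested was called, but all 4 had an unadjusted p under 0.05, against 3434 of all 17268 genes. Their median log2 fold change was 2.54. Averaged over both cell types 2 of the erythroid markers were called as higher. Of 5 endothelial markers tested Plvap was lower in Cre cTEC (-1.61). Fibroblast markers summed to 154 to 328 CPM against 170 to 229 CPM, library 11 being highest, and 1 was higher and 1 lower. The part of these differences in the Cxcl9 and Cxcl10 levels was not tested.

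**Figure D4:**
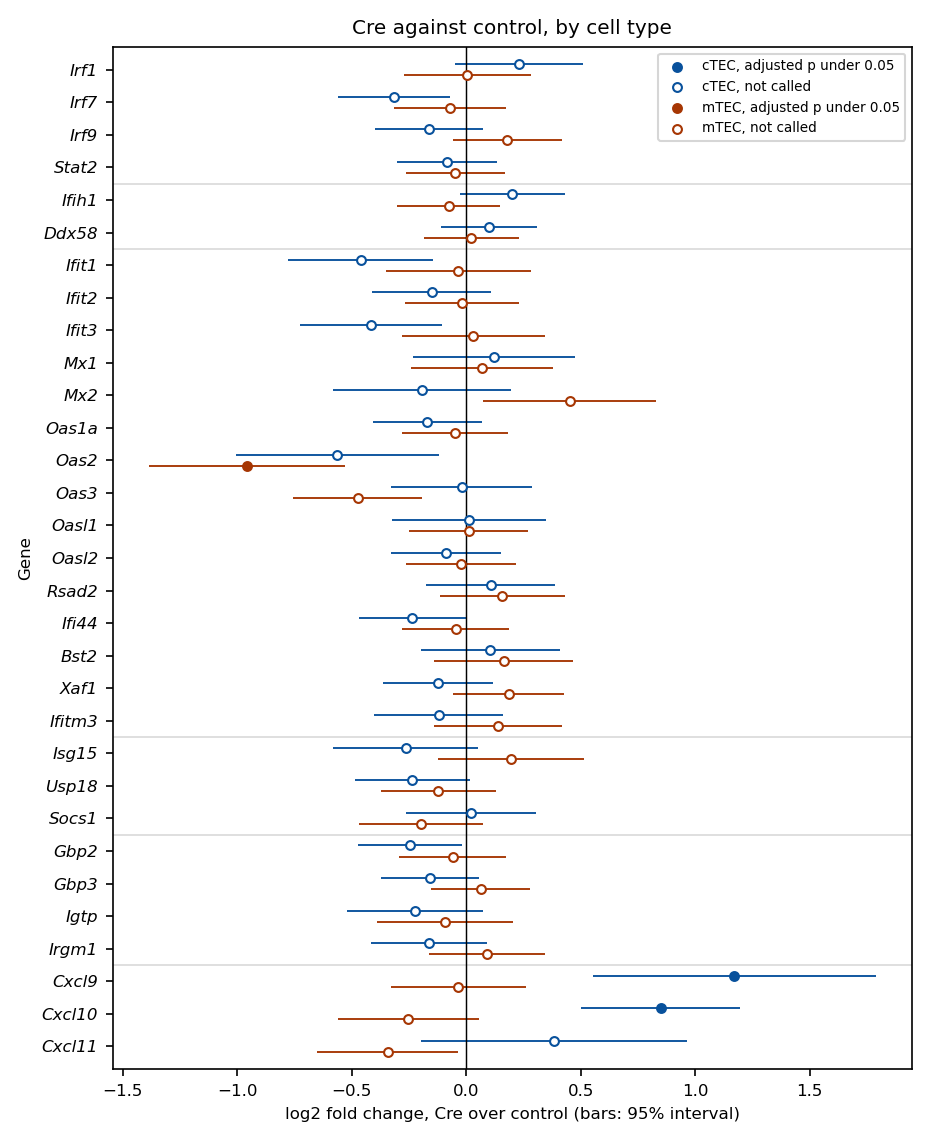
Log2 fold change of Cre over control for each gene with its 95% interval, in cTEC (blue) and mTEC (brown), with filled points for an adjusted p under 0.05 and lines between the roles. Cxcl9 and Cxcl10 in cTEC and Oas2 in mTEC are the filled points.

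The other members in cTEC lay mostly a little below their controls without passing the test. Of the 31, 20 had a negative log2 fold change, and the median was -0.12, against -0.02 over all genes. For 7 genes every Cre cTEC library lay below every control cTEC library, against 10.1% of all genes, and for 2 every library lay above, against 10.2%. The 7 were Ifit1, Ifit3, Irf7, Gbp2, Ifi44, Gbp3 and Xaf1. Ifit1 stood at 437, 520 and 560 CPM in Cre cTEC (-0.46, 95% interval -0.78 to -0.15, adjusted p = 0.0643), and Ifit3 at 251, 312 and 357 CPM (-0.41, adjusted p = 0.0965). Irf7 stood at 367, 358 and 433 CPM (-0.31, adjusted p = 0.115). DESeq2 called Ifit1 (adjusted p = 0.0233) and Irf7 (0.0279) as lower, and Ifit1 was also called without library 4 (0.043) or 8 (0.0411). Irf1 stood at 505, 312 and 415 CPM in Cre cTEC, with library 11 below all 3 controls. Without library 11 it was called as higher (0.38, adjusted p = 0.0122). For Mx1, Oasl1, Socs1 and Oas3 the 95% intervals in cTEC ran from -0.23 to 0.47, -0.32 to 0.35, -0.26 to 0.30 and -0.33 to 0.29.

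In mTEC, Oas2 fell in Cre libraries and no other member was called. That is 1 lower gene against 1.49% of all genes and 0 higher against 0.585%. An unadjusted p under 0.05 was found for 4 of the 31, and for 2528 of all 17268 genes. Oas2, the middle-sized synthetase of the family, stood at 57.5, 46.7 and 45.3 CPM in control mTEC and at 21.9, 20.0 and 35.0 CPM in Cre mTEC. The groups did not overlap, and library 6 was the highest of the Cre libraries (-0.96, SE 0.20, adjusted p = 0.0186). The call did not hold when library 1, 4 or 5 was left out (adjusted p up to 0.134), where the log2 fold change lay between -0.89 and -0.81. Its neighbour Oas3 stood at 122, 98.1 and 89.0 CPM and at 70.9, 73.3 and 78.6 CPM, again without overlap, and was not called (-0.47, SE 0.13, adjusted p = 0.0772). Oas3 was called as lower with DESeq2 (0.0259), voom (0.0271), no filter (0.015), the mTEC libraries alone (0.0276), and without library 9, 10 or 11 (0.0322 to 0.0474). Oas1a, another synthetase, stood at 77.4, 82.8 and 72.0 CPM and at 80.6, 71.2 and 72.8 CPM, with a 95% interval of -0.28 to 0.18. Its near-identical copies in the mouse leave its counts uncertain.

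Over the 31, 4 genes lay lower in every Cre mTEC library (Oas2, Oas3, Cxcl11 and Socs1), against 12.8% of all genes, and Mx2 lay higher in every one, against 11.6%. Mx2 stood at 14.5, 16.6 and 16.3 CPM and at 27.7, 20.5 and 16.7 CPM (0.45, adjusted p = 0.225), and Cxcl11 at 31.8, 23.3 and 30.5 CPM in Cre mTEC (-0.34, adjusted p = 0.271). Library 5 had the lowest value of the Cre mTEC libraries for all 3 chemokines. The median of the 31 was -0.02, against 0.01 over all genes, and 14 values were positive. Beside these values, the macrophage and dendritic cell list summed to 208 to 336 CPM in Cre mTEC and 257 to 338 CPM in control mTEC, and the mTEC list to 4578 to 5203 CPM and 5364 to 5635 CPM. No marker of either list was called there. Fibroblast markers summed to 87.9 to 129 CPM against 148 to 171 CPM, without overlap, and Col1a1 was called as lower (-0.81). Of the cTEC markers Ccl25 was lower (-1.26). Their part in the Oas2 level was not tested.

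Averaged over both cell types, Oas2 was lower in Cre libraries (-0.76, SE 0.15, adjusted p = 0.00325) and Cxcl9 higher (0.57, SE 0.16, adjusted p = 0.0405). That is 1 gene each way, against 3.61% of all genes lower and 3.60% higher. In cTEC alone Oas2 stood at 43.6, 41.4 and 30.5 CPM in the controls and 18.6, 32.8 and 27.8 CPM in Cre libraries, which overlapped by library 11 (-0.56, adjusted p = 0.118). It was called there without library 11 (-0.75, adjusted p = 0.0412) and without a filter (0.022). The averaged Oas2 call held in each of 18 alternative settings (adjusted p up to 0.0149). The averaged Cxcl9 call held in 7 of 18 and failed when library 2, 3, 4, 6, 7, 8, 9 or 11 was left out (adjusted p up to 0.112), with DESeq2's size factors (0.0561), voom (0.118) and the stricter filter (0.0585). Without library 11 its value was 0.37.

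The genotype effect itself differed between the cell types for Cxcl10 and Cxcl9, tested as the cTEC effect minus the mTEC effect. That is 2 higher of 31 against 2.92% of all genes, and 0 lower against 1.08%. For Cxcl10 the difference was 1.10 (SE 0.22, adjusted p = 0.00807): 0.85 in cTEC, and -0.25 in mTEC, where Cre libraries stood at 357, 261 and 389 CPM. The same contrast describes the gap between the cell types, which was 10.9-fold in control and 5.06-fold in Cre libraries for Cxcl10. For Cxcl9 the difference was 1.20 (SE 0.33, adjusted p = 0.0437), and the mTEC libraries of the genotypes overlapped, at 70.2 to 82.6 CPM and 64.8 to 83.2 CPM. The Cxcl10 difference held in each of 18 alternative settings (adjusted p up to 0.0307). That of Cxcl9 held in 8 of 18 and failed when library 1, 2, 3, 5, 7, 8, 9 or 11 was left out (adjusted p up to 0.119), with voom (0.0965) and with the stricter filter (0.0551). The value of Cxcl11 was 0.72 in the same direction, with an adjusted p of 0.245.

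**Figure D5:**
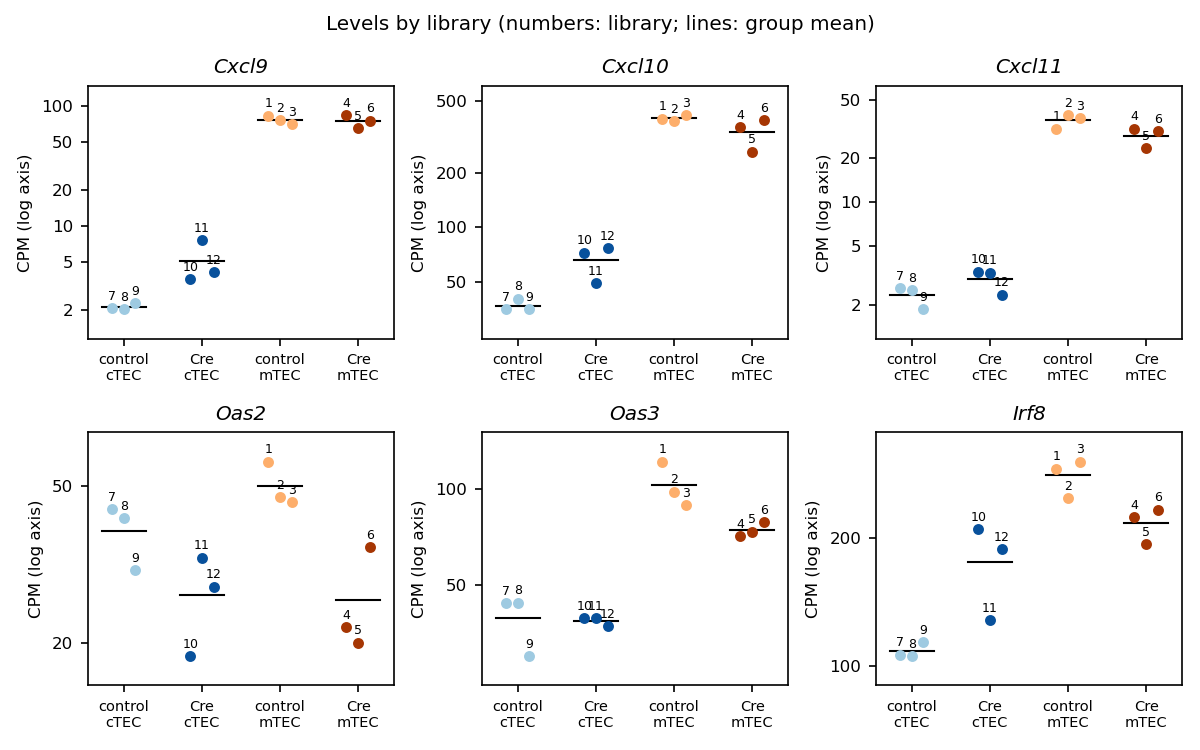
Levels of Cxcl9, Cxcl10, Cxcl11, Oas2, Oas3 and Irf8 in CPM on log axes, with 1 numbered point per library and a line at each group mean. Library 11 is the highest Cre cTEC library for Cxcl9 and the lowest for Cxcl10 and Irf8, and Oas2 is lower in all 3 Cre mTEC libraries than in all 3 control mTEC libraries.

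Transcripts of the interferons themselves were near the limit of detection. Of 10 ligand genes on the list 9 were in the table, none passed the filter on low counts, and Ifna1 was not analysed here. The highest counts were those of Il28a and Il28b, the type III interferons, whose near-identical sequences leave the split between them uncertain. Il28a had 18, 14 and 10 counts in control mTEC, 5, 6 and 9 in Cre mTEC, and 0 or 1 in each cTEC library. Il28b had 13, 15 and 7 counts, then 4, 5 and 9, and at most 1 in cTEC. Control mTEC libraries were deeper than Cre mTEC libraries. In CPM, Il28a stood at 1.31 to 1.62 in control mTEC and 0.761 to 1.22 in Cre mTEC. Il28b stood at 0.915 to 1.64 and 0.609 to 1.22 CPM, with overlap. Both Il28 genes were read almost only in mTEC libraries. A count of 0 allows up to 3 counts, or 0.269 to 0.583 CPM depending on the library, for counting error only. Ifng, the type II interferon made by lymphocytes, had 10, 7 and 10 counts in control mTEC and at most 5 in any other library. In CPM it stood at 0.766 to 1.31 in control mTEC and 0.301 to 0.68 in Cre mTEC. Ifnb1 had 0 to 12 counts per library, the highest in library 6 of Cre mTEC. Ifna2, Ifna4, Ifna5, Ifnk and Ifne had at most 5 counts in any library.

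Of 11 receptors and kinases that read these ligands, 5 were higher and 3 lower in control mTEC than in control cTEC, against 29.3% and 30.0% of all genes. For genotype 0 were called, against 5.62% higher and 3.38% lower of all genes in cTEC and 0.585% and 1.49% in mTEC. In cTEC 2 and in mTEC 1 had an unadjusted p under 0.05, against 3434 and 2528 of all 17268 genes. Ifngr2 (1.54) and Ifngr1 (0.78), the chains of the type II receptor, were higher in mTEC, as was Stat3 (0.99). Il10rb (-1.33), a chain shared by the type III and interleukin-10 receptors, and Ifnar2 (-0.86), of the type I receptor, were lower. The difference between genotype effects was called for Ifnar2 (-0.54, adjusted p = 0.0491), and was lost in 11 of 18 settings (adjusted p up to 0.264), among them without library 1, 2, 3, 4, 5, 7, 9, 10 or 12.

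Of 17 sensors, adaptors and other factors tested, Irf8 alone was called for genotype in cTEC, where 5.62% of all genes were higher, and none in mTEC. The count is thus at the background. Irf8, a factor best known from dendritic cells and B cells, stood at 106, 105 and 114 CPM in control cTEC libraries and at 210, 128 and 188 CPM in Cre cTEC. All 3 Cre libraries lay higher, library 11 least (0.70, SE 0.15, adjusted p = 0.00418), and the call held in each of 19 settings. In mTEC Irf8 stood at 291, 248 and 302 CPM in control and 224, 193 and 233 CPM in Cre libraries (-0.37, adjusted p = 0.206), and the difference of effects was 1.07 (adjusted p = 0.00613). By group means its order was that of Cxcl10: control cTEC lowest, then Cre cTEC, Cre mTEC and control mTEC. Between the cell types in controls, 8 of the 17 were higher in mTEC and 5 lower, against 29.3% and 30.0% of all genes. Irf5 (2.82), which acts below Toll-like receptors, Tmem173 (2.71), the DNA-sensing adaptor STING, and Irf8 (1.37) were higher by the smallest p-values, followed by Zbp1 (0.96), a sensor of Z-form nucleic acid. The sums of the macrophage and dendritic cell markers, given above, moved in the same direction between cell types, while Itgax, Clec9a and Siglech did not. The part of these cells was not tested.

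Of 34 other interferon-induced genes tested, 9 were higher in control mTEC and 13 lower, against 29.3% and 30.0% of all genes. Gbp5 (2.75), a GTPase that promotes inflammasome assembly, Ifi203 (2.77) and Ifitm1 (2.76) led the higher genes, and Isg20 (-2.42), an RNA exonuclease, and Trim21 (-1.19), a cytosolic antibody receptor, the lower ones. For genotype in cTEC 2 rose, Isg20 and Trim25, and 2 fell, Ifi204 and Ifitm1, against 5.62% and 3.38% of all genes. These counts lie near the background. Isg20 stood at 94.2, 143 and 125 CPM in control cTEC libraries and at 302, 146 and 281 CPM in Cre cTEC. As for Cxcl10 and Irf8, library 11 was the Cre library nearest the controls (1.01, SE 0.20, adjusted p = 0.00237), and the call held in each of 19 settings. The difference of the effects for Isg20 was 1.17 (adjusted p = 0.0384), lost in 10 of 18 settings, among them without library 1, 2, 3, 4, 5, 7, 9, 10 or 12 (adjusted p up to 0.121). Trim25, a ligase that activates RIG-I, was at 72.1, 86.4 and 73.4 CPM and at 98.8, 108 and 93.4 CPM (0.37, adjusted p = 0.0279), a call lost without library 7, 9 or 10, without a filter or with the cTEC libraries alone (up to 0.138).

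Ifi204, a DNA-binding protein of the Ifi200 family, fell in cTEC from 38.2, 39.2 and 35.7 CPM to 22.2, 29.9 and 27.2 CPM (-0.52, adjusted p = 0.0261). That call did not hold when library 7, 8, 9, 10 or 12 was left out or with the cTEC libraries alone (adjusted p up to 0.145). Over both cell types Ifi204 was lower by -0.47 (adjusted p = 0.00514), which held in each of 18 settings. Ifitm1, a relative of Ifitm3, was read at 15, 10 and 16 counts in control cTEC and 2, 6 and 7 in Cre cTEC (-1.56, adjusted p = 0.0455), a call lost in 9 of 19 settings (adjusted p up to 0.261), among them without library 2, 3, 4, 7, 8, 9 or 10. In mTEC, Ifitm1 stood at 11.2, 17.3 and 16.3 CPM in control and 6.09, 3.92 and 6.12 CPM in Cre libraries. There too every Cre library was below every control library (-1.47, SE 0.28, adjusted p = 0.00911), though it was not called when library 2, 3 or 5 was left out (up to 0.0811). The averaged value was -1.51 (adjusted p = 0.00185) and held in each of 18 settings. Samd9l, an inhibitor of virus replication, was the other gene that fell in Cre mTEC, from 157, 130 and 134 CPM to 97.5, 93.7 and 114 CPM (-0.46, adjusted p = 0.0428). It was not called when library 1, 2, 3, 4, 5, 8, 9 or 12 was left out (adjusted p up to 0.274). Averaged over both cell types it was -0.31 (adjusted p = 0.0228), lost without library 1, 5, 7 or 12 or without a filter (up to 0.0876).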

How the data were processed

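RNA of sorted cTEC and mTEC was sequenced in 12 libraries made with a SMARTer low-input kit, which does not mark strand. The authors deposited raw read counts per gene symbol. Build mm9, STAR, HTSeq and edgeR are named, per the submitters' processing notes. The versions, annotation and strand setting were not given in sources used here. Reads of antisense partners and near-identical copies cannot be told apart.

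Groups were taken from the labels. Genes passing edgeR's filterByExpr by group (edgeR 4.0.16, R 4.3.3) were fitted with TMM scaling in 1 quasi-likelihood fit of 12 libraries and 4 groups, with 8 residual degrees of freedom, two-sided, for 6 comparisons, each adjusted by Benjamini-Hochberg over 17268 genes at a threshold of 0.05. Alternatives were DESeq2 (version 1.42.0), its size factors in edgeR, voom with sample quality weights from limma 3.58.1, no filter, a stricter filter (at least 5 CPM in 3 libraries), a robust fit, a fit to the groups compared alone, and 12 fits that each left out 1 library. Within groups, Pearson correlations of log2(CPM + 1) across genes ran from 0.976 to 0.993. Chi-square per degree of freedom ran from 3.19 to 11.9, which is above sampling noise, so each was counted as a separate library. The lowest correlation and the highest chi-square were both those of Cre cTEC libraries 10 and 11.

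Genes named in full were members called for genotype, up to 4 of each role by p in control mTEC against cTEC, and, of 4 pathway lists, genes called for genotype with up to 4 by p. The printed promoters, the ratios, Ifngr1 and the uncalled members given with values were singled out after their values were seen. The members and lists were chosen with earlier results of these data known. Because mm9 differs from GRCm38, coordinates are given only for RefSeq promoters, and GENCODE M21 served for transcript lengths. One gene of the pathway lists is counted but not reported here by name.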

Additional observations from a re-analysis of the deposited data

Results flagged for a closer look

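The genotype effect differed between cTEC and mTEC for 2 of the 31 genes by a test of the difference itself. For Cxcl10 the cTEC effect minus the mTEC effect was 1.10 on the log2 scale (edgeR, adjusted p = 0.00807), with Cre above control in all 3 cTEC libraries and the genotypes overlapping in mTEC. For Cxcl9 it was 1.20 (adjusted p = 0.0437), on 12 to 39 counts per cTEC library, and 0.89 (adjusted p = 0.0578) without library 11.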

How the results depend on the processing

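No call of a member reversed under any of the 19 settings. Of the 20 member calls in control mTEC against cTEC, 15 held in all settings, as did 12 of 16 in Cre libraries. Leaving out 1 library at a time, the members called numbered 1 to 3 for genotype in cTEC, 0 to 2 in mTEC, 1 to 2 averaged, 1 to 2 for the difference, 16 to 20 for mTEC against cTEC in control and 13 to 19 in Cre libraries. Over all genes the counts were 1018 to 2294 for genotype in cTEC, 78 to 984 in mTEC, 805 to 1815 averaged, 371 to 1644 for the difference, 8971 to 11027 for mTEC against cTEC in control and 7351 to 9846 in Cre libraries.

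For genotype in cTEC, DESeq2 called 4 members (2 higher, 2 lower), voom 1 and the libraries compared alone 1. For genotype in mTEC, DESeq2 called 2 members, voom 3, no filter 2 and the libraries compared alone 2, against 1. Over all genes that comparison gave 599 calls with DESeq2, 1672 with voom, 1049 with no filter and 1026 with the libraries compared alone, against 358. The averaged comparison gave 1 member with DESeq2's size factors, 1 with the stricter filter, and 2065 genes with voom against 1245. The difference gave 1 member with voom and 1 with the stricter filter, and 1131 genes with DESeq2, 1398 with voom (811 higher, 587 lower, against 505 and 187) and 1140 with no filter, against 692. The causes were not tested. No paired analysis was possible because each library has a number of its own, from 1 to 12, that no other group repeats. Depth limits Cxcl9 and Cxcl11 in cTEC, at 12 to 39 counts per library, and the interferon ligands.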
